A study of Homo sapiens with 4 samples.

Results

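The 35 genes described here encode the machinery of autophagy and its end point, the lysosome. They were taken from a fixed list of gene symbols, matched to the Ensembl IDs of the count files through GENCODE 29, and all 35 were found among the 58213 IDs present in all 4 files. No filter on expression values was used to choose them, but earlier results of these data were known by then. Whole transcriptomes were measured by RNA-seq in 4 libraries, 1 per condition. The comparisons ask what follows the loss of HDAC6 and of the long non-coding RNA LINC00461 in glioblastoma cells. In the resistant pair, R-U87MG, a temozolomide (TMZ)-resistant derivative of the human glioblastoma line U87MG that was kept in 50 µM TMZ, received non-targeting siRNA (R-U87MG si-NC) or siRNA against HDAC6 (R-U87MG si-HDAC6). In the parental pair, U87MG received non-targeting siRNA (U87MG si-NC) or siRNA against LINC00461 (U87MG si-LINC00461). RNA was collected 72 h after transfection in every group. Each group is a single culture of one cell line, so no difference below has a replicate check and no p-value is given.

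Autophagy begins when the ULK1 kinase complex activates a lipid kinase complex built on PIK3C3 and BECN1, and the lipid it makes recruits proteins that feed a growing membrane and attach small ubiquitin-like proteins of the ATG8 family to it. Receptors such as SQSTM1 bind ubiquitin-tagged cargo on one side and ATG8 proteins on the other, and the closed autophagosome fuses with a lysosome, where cathepsins digest the contents. TFEB and TFE3 are transcription factors that bind E-box motifs before many of the genes involved. HDAC6 is a cytoplasmic deacetylase that binds ubiquitin and dynein motors, carries protein aggregates along microtubules and aids the fusion of autophagosomes with lysosomes.

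CTSL stood out in the parental pair. This gene, which encodes the lysosomal cysteine protease cathepsin L, was 5.28-fold higher in U87MG si-LINC00461 than in its control, and WIPI1, ATG2A and LAMP2 were the other members at least 1.5-fold higher. Of all genes compared in that pair, 14.2% were at least 1.5-fold higher. In the resistant pair no member reached 1.5-fold, where 2.52% of all genes were lower and 2.68% higher. The 2 control libraries differed by at least 1.5-fold for 14 of 34 members, where 25.3% of all genes were lower in R-U87MG and 22.9% higher. SQSTM1 was 4.44-fold higher in R-U87MG. A 1.5-fold difference was used as the threshold for calling a gene higher or lower throughout.

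To show which of the letters bound by TFEB, TFE3 and other factors lie before these genes, sequences were read from RefSeq promoter windows, each of which runs from 250 bases before to 50 after an annotated start (GRCh38.p14). Of the 35 genes, 31 had at least 1 window, all but RB1CC1, LAMP2, CTSB and UVRAG. Sequences are printed for the 4 members with an E-box and for CTSL and WIPI1, the 2 highest members in the parental pair. The E-box core CACGTG reads the same on both strands, and it was found in a window of 4 of these 31 genes (12.9%) and of 8.77% of all 27305 genes in the table. Its longer form TCACGTGA, which contains the core and is part of the element described for TFEB and TFE3, was found for 2 members, ATG3 and LAMP1 (6.45%), against 1.18% of all genes. The 27305 genes were not matched to the members in gene type or expression. They outnumber the 19790 protein-coding genes of the count files, and all 35 members are protein-coding. LAMP1, the abundant lysosomal membrane glycoprotein, held 6 copies of the core, 5 of them before its start site. The 250 bases before that site lie on the plus strand at chr13:113296989-113297238, and the capitals mark the E-box core.

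LAMP1: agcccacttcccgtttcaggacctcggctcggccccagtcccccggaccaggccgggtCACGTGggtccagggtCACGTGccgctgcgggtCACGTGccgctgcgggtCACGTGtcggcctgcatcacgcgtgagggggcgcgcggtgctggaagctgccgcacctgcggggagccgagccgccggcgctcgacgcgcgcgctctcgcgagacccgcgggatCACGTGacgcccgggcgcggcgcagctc

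The other members with the core are shown by the bases around the copy before their start sites, again in capitals. For CTSD, which encodes the aspartic protease cathepsin D, they lie on the minus strand at chr11:1763949-1763994. For ATG14, a subunit that directs the lipid kinase to autophagy, they lie on the minus strand at chr14:55411831-55411871, and for ATG3, the enzyme that joins ATG8 proteins to lipid, on the minus strand at chr3:112561963-112562000. Of the 3 genes, CTSD has 41 bases between the copy and the start site, ATG14 has 15 and ATG3 has 12.

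CTSD: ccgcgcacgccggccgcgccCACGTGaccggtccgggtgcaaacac
ATG14: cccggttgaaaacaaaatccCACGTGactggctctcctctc
ATG3: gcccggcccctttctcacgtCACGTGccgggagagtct

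The windows of CTSL, WIPI1, ATG2A and SQSTM1 did not hold the core. They held the GC box GGGCGG, the letters bound by the factor Sp1, read on either strand, a motif added after the windows had been seen. GC boxes are common: 25 of the 31 members (80.6%) and 48.3% of the same unmatched set of all genes had one in a window. CTSL had 3 copies in its window and WIPI1, whose product binds the lipid made by PIK3C3, had 10. The 250 bases before the start sites of both are shown with the GC boxes in capitals, for CTSL on the plus strand at chr9:87725869-87726118 and for WIPI1 on the minus strand at chr17:68457497-68457746.

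CTSL: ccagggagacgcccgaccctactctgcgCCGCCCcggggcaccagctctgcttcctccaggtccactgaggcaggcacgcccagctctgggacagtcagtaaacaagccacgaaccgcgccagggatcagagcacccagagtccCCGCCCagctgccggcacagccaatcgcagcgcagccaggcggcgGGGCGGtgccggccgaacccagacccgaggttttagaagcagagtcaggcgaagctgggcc
WIPI1: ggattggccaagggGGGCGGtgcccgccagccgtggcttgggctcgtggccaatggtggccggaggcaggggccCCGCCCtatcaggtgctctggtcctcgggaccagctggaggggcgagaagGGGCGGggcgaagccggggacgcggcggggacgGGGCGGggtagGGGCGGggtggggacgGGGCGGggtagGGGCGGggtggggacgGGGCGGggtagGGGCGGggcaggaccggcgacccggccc

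The 4 libraries held between 12596072 and 20027865 estimated fragments, a range in which 3 counts equal 0.15 to 0.238 CPM (counts scaled to sequencing depth). The targeted genes were lower in their libraries, HDAC6 with 67 counts after si-HDAC6 and 296 in its control, and LINC00461 with 73 counts after si-LINC00461 and 363 in its control. LINC00461 was also lower after si-HDAC6, with 80 counts and 154 in the control, a log2 ratio of −0.55 (−0.96 to −0.15). HDAC6 had 540 counts after si-LINC00461 and 649 in the control (−0.08, −0.25 to 0.09). The mesenchymal and neural progenitor markers VIM, NES and CD44 were present in all 4 libraries. The astrocyte list was uneven, with SLC1A3 between 604 and 1240 counts, GFAP at most 13, S100B and ALDH1L1 at most 4, and AQP4 listed at 0 in all 4. Of 7 macrophage and microglia markers CSF1R had 149 to 297 counts, the other 6 had at most 5, and AIF1 was listed at 0 in all 4. Log2 ratios were computed after TMM normalization of the 2 libraries compared. The range printed after a ratio is its 95% interval (exact binomial, Clopper-Pearson). It covers nothing beyond counting error, as PCR copies of a fragment are not independent molecules.

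Levels of the members spanned a wide range, as the plot of levels by library shows. Compared per kilobase of exon, cathepsin D led in 3 of the 4 libraries, with 239 CPM per kilobase in R-U87MG si-NC, 264 in R-U87MG si-HDAC6 and 471 in U87MG si-NC. In U87MG si-LINC00461 its level was 545 CPM per kilobase, and CTSL led there with 736, after 139 in U87MG si-NC. That level placed CTSL at rank 28 of 57875 named genes in U87MG si-LINC00461, against rank 200 in U87MG si-NC. CTSB, the cysteine protease cathepsin B, was the remaining member of the leading 3 in every library. Taken over the library totals, the 3 cathepsins made up 1959 CPM in R-U87MG si-NC, 2033 in R-U87MG si-HDAC6, 3381 in U87MG si-NC and 5603 in U87MG si-LINC00461.

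**Figure D1:**
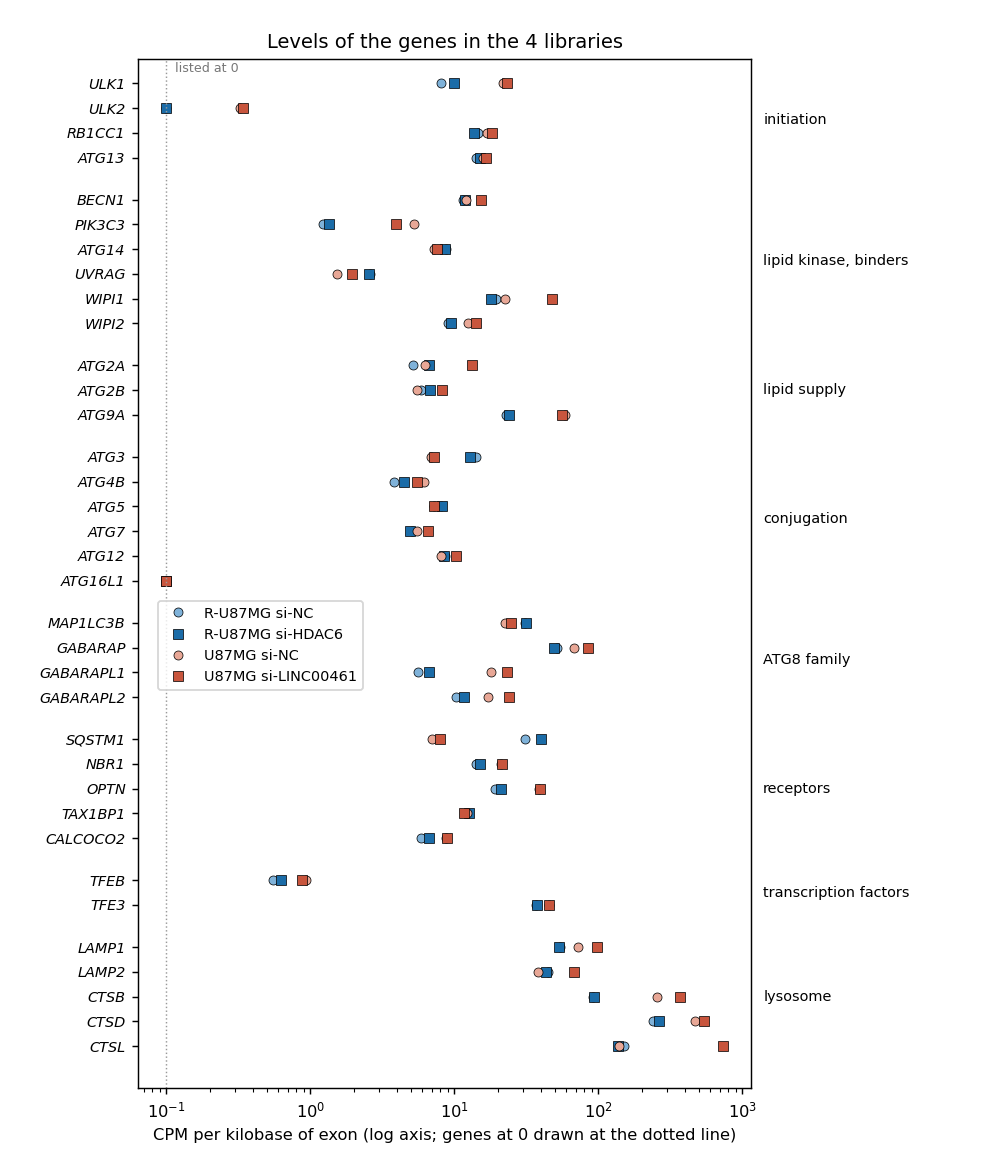
Level of each of the 35 genes in CPM per kilobase of exon (log axis), with 1 point per library and genes grouped by role. The cathepsins CTSB, CTSD and CTSL are the highest in every library, and the point of CTSL in U87MG si-LINC00461 (736) lies far to the right of its other 3.

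The roles were led by different members. In U87MG si-NC the highest member per kilobase was the kinase ULK1 among the initiation genes (21.9 CPM per kilobase), WIPI1 among the lipid kinase subunits and binders (22.5), the membrane scramblase ATG9A in lipid supply (58.8) and the ubiquitin-like protein ATG12 in the conjugation machinery (8.14). GABARAP led the ATG8 family (67.6), the receptor OPTN led the receptors (38.7) and TFE3 led the transcription factors (45.4). TFEB, the relative of TFE3, was low at 0.938 CPM per kilobase. ATG12 had 1393 counts in R-U87MG si-NC, 1047 in R-U87MG si-HDAC6, 1325 in U87MG si-NC and 1480 in U87MG si-LINC00461, and TFE3 had 2902, 2218, 3561 and 3141 counts in the same order.

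A pair of members could not be followed throughout. ATG16L1, which places the conjugation machinery on the membrane, was listed at 0 in all 4 libraries. ULK2, the paralogue of ULK1, was listed at 0 in both R-U87MG libraries and had 59 counts in U87MG si-NC and 54 in U87MG si-LINC00461. A listed 0 may be a failed estimate, because RPS18, a ribosomal protein gene used by every cell, was also listed at 0 in all 4. Of 10571 protein-coding genes with at least 50 counts in both U87MG libraries, 35 were at 0 in both R-U87MG libraries. No fold is given for either gene where it is at 0. The fragment numbers of GABARAP, ATG9A, CTSB, CTSD and CTSL were not whole in at least 1 library, and the reason was not tested. For CTSL that library was U87MG si-LINC00461 alone.

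After HDAC6 knockdown the members lay within a narrow band, as did most genes. Of the 33 members with a mean of at least 1 CPM in the resistant pair, 0 were lower by 1.5-fold or more in R-U87MG si-HDAC6 and 0 were higher, where 2.52% of all 13120 genes compared were lower and 2.68% higher. With so few genes called, 0 of 33 is near those shares. The log2 ratios of the members ran from −0.14 to 0.37, with a median of 0.038 against −0.006 for all genes. Percentiles 5 and 95 of all genes were −0.417 and 0.436. At the precision of these counts, 9 members had an interval wholly above 0, against 13.8% of all genes, and 3 had one wholly below it, against 16.4%. Fewer cells expressing a gene and less RNA of it per cell cannot be told apart in these bulk samples.

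The upper end of that band was held by genes of several roles. SQSTM1, the ubiquitin-binding receptor also called p62, had 4346 counts in the control and 4265 in the shallower R-U87MG si-HDAC6 library, a log2 ratio of 0.36 (0.30 to 0.43), or 1.29-fold. ATG2A, which transfers lipid to the growing membrane, had 742 and 729 counts, a log2 ratio of 0.37 (0.22 to 0.52). ULK1 followed with 1130 and 1048 counts and 0.28 (0.16 to 0.41). The other members with an interval above 0 were GABARAPL1 (0.24), the ATG8-processing protease ATG4B (0.22), the ATG2A paralogue ATG2B (0.20), the receptors CALCOCO2 (0.17) and OPTN (0.14), and CTSD (0.14). All 9 lay below 1.3-fold.

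Members with an interval below 0 were CTSL, WIPI1 and ATG3. CTSL had 6553 counts in the control and 4531 in R-U87MG si-HDAC6, a log2 ratio of −0.14 (−0.20 to −0.09). WIPI1 had 1221 and 850 counts and a ratio of −0.13 (−0.26 to −0.004), and ATG3 had 1570 and 1099 counts and −0.12 (−0.24 to −0.01). CTSL was thus the lowest member here and, as described next, the highest in the parental pair. For the remaining 21 members with a ratio, among them MAP1LC3B (LC3B, the ATG8 protein most used to mark autophagosomes, 0.01), BECN1 (0.03), LAMP1 (−0.02), LAMP2 (−0.06) and CTSB (0.02), the interval included 0.

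**Figure D2:**
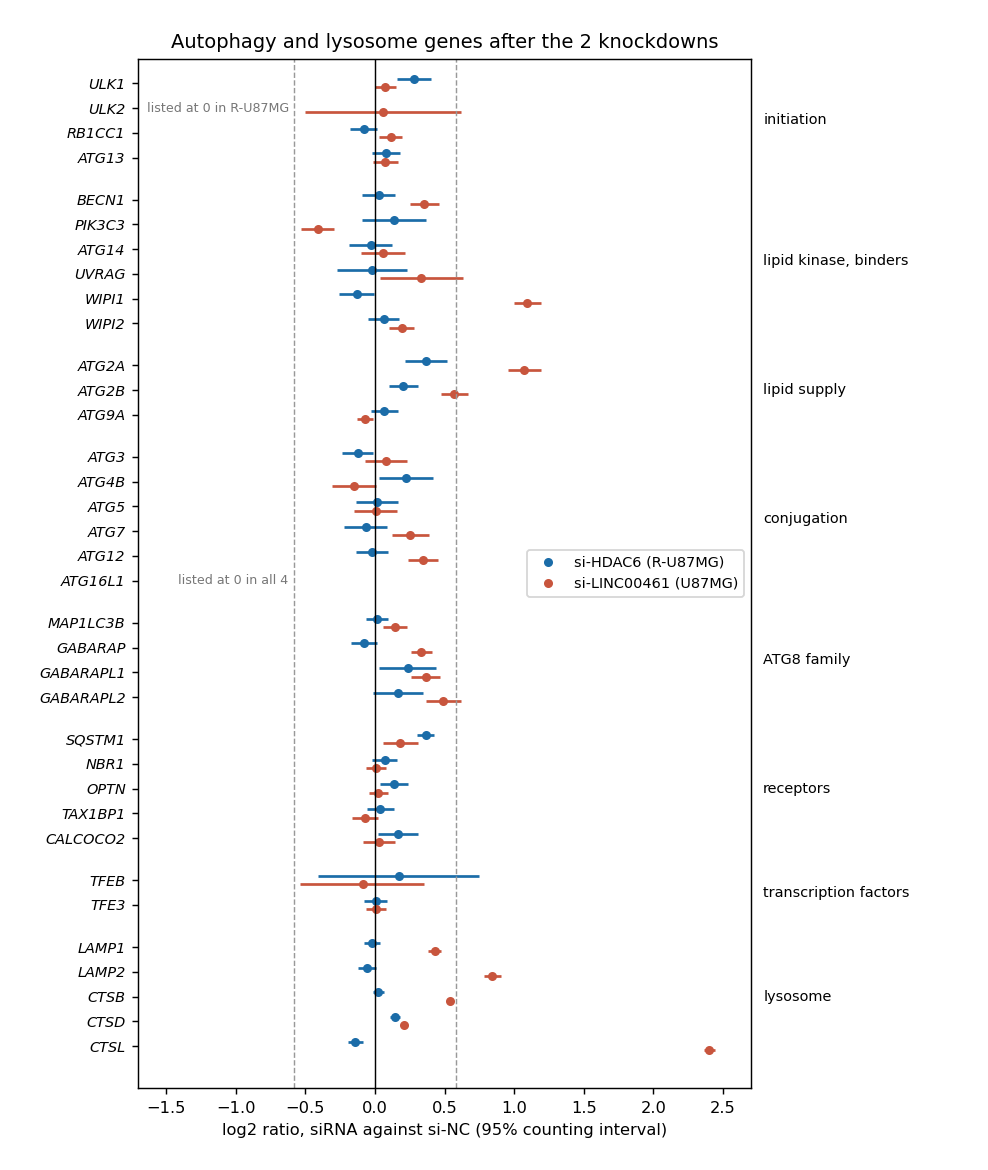
Log2 ratio of each gene after si-HDAC6 in R-U87MG (blue) and after si-LINC00461 in U87MG (red), with bars for the 95% counting interval and dashed lines at 1.5-fold. All blue points lie between −0.14 and 0.37, and the red points of CTSL (2.40), WIPI1 (1.09), ATG2A (1.07) and LAMP2 (0.84) lie beyond the right dashed line.

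LINC00461 knockdown was accompanied by larger differences, mostly upward. Of 34 members compared in the parental pair, 4 were at least 1.5-fold higher in U87MG si-LINC00461 and 0 were at least 1.5-fold lower, while 14.2% of all 13211 genes compared were higher and 16.8% were lower. The 4 make up 11.8% of the members, a share near that of all genes. By direction, 29 members had a ratio above 0 and 5 below it, where 50.2% of all genes were below it. The numbers were 26 and 8 with library totals and 24 and 10 with DESeq2 size factors. An interval wholly above 0 was found for 20 members (58.8%), against 33.1% of all genes, and one wholly below 0 for 2 members (5.88%), against 33.3%. The median log2 ratio of the members was 0.16, and that of all genes was −0.002.

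CTSL, a lysosomal member, had the largest difference of the members, at rank 93 from the highest of all 13211 genes compared. This gene (chromosome 9, 87725519 to 87731393, plus strand, GRCh38) had 6036 counts in U87MG si-NC and 28009 in U87MG si-LINC00461, a log2 ratio of 2.40 (2.36 to 2.44). Its levels of 152 and 138 CPM per kilobase in the resistant pair were close to the 139 of the parental control, so the U87MG si-LINC00461 library alone was high. That library is also the only one in which the fragment number of CTSL was not whole. LAMP2 (chromosome X, 120427827 to 120469365, minus strand) is a lysosomal membrane protein needed for fusion with autophagosomes. It had 4508 counts in R-U87MG si-NC, 3299 in R-U87MG si-HDAC6, 3844 in U87MG si-NC and 6057 in U87MG si-LINC00461, and its ratio in the parental pair was 0.84 (0.79 to 0.90). The other 3 lysosomal members had intervals above 0 without reaching 1.5-fold. CTSB had 34695 counts in U87MG si-NC and 44205 in U87MG si-LINC00461 (0.54, 0.52 to 0.56), LAMP1 had 7667 and 9061 (0.43, 0.38 to 0.47), and CTSD had 26986 and 27394 (0.21, 0.19 to 0.23).

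Among the genes that build the autophagosome, WIPI1 and ATG2A were higher. WIPI1 (chromosome 17, 68420948 to 68457513, minus strand) had 1403 counts in U87MG si-NC and 2631 in U87MG si-LINC00461, a log2 ratio of 1.09 (1.0 to 1.19). ATG2A (chromosome 11, 64894546 to 64917248, minus strand) had 904 and 1670 counts, a ratio of 1.07 (0.96 to 1.19). Whether these 2 differences are linked was not tested. The paralogues differed less: ATG2B had 1490 and 1944 counts (0.57, 0.47 to 0.67), just under 1.5-fold, and WIPI2 had 2038 and 2044 (0.19, 0.10 to 0.28). ATG9A, the third lipid supply gene, had 5090 and 4257 counts (−0.07, −0.13 to −0.01).

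Lipid kinase subunits did not move as one group. PIK3C3, the catalytic subunit, was the lowest member, with 1467 counts in U87MG si-NC and 968 in U87MG si-LINC00461 (−0.41, −0.53 to −0.30). Its partner BECN1 (0.35, 0.25 to 0.46) and UVRAG, the subunit of the complex that acts on endosomes (0.33, 0.03 to 0.63), had intervals above 0 and lay within 1.5-fold. ATG14, the subunit of the autophagy complex, had an interval that included 0 (0.06, −0.10 to 0.22). PIK3C3 and ATG9A were the 2 members with an interval below 0.

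All 4 ATG8 genes had intervals above 0, and none passed 1.5-fold. GABARAPL2 had 950 counts in U87MG si-NC and 1173 in U87MG si-LINC00461 (0.49, 0.37 to 0.62), GABARAPL1 had 1358 and 1535 (0.36, 0.26 to 0.47), and GABARAP had 2806 and 3106 (0.33, 0.26 to 0.41). The LC3 member MAP1LC3B differed least of the 4 (0.14, 0.06 to 0.23). In the conjugation machinery ATG12 (0.35, 0.24 to 0.46) and the activating enzyme ATG7 (0.25, 0.12 to 0.39) had intervals above 0. ATG3 (0.08), ATG5, which is joined to ATG12 (0.004), and ATG4B (−0.15) had intervals that included 0.

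Initiation genes, receptors and transcription factors stayed close to the control. ULK1 had 3056 counts in U87MG si-NC and 2828 in U87MG si-LINC00461 (0.08, 0.001 to 0.15), and RB1CC1, the scaffold of the ULK1 complex, had a ratio of 0.11 (0.03 to 0.20). The intervals of ATG13, another subunit (0.08), and of ULK2 (0.06) included 0. SQSTM1 had 981 and 978 counts (0.18, 0.05 to 0.31), and the receptors OPTN, NBR1, CALCOCO2 and TAX1BP1 lay between −0.07 and 0.03 with intervals that included 0. Neither transcription factor differed beyond counting error, with 0.01 for TFE3 and −0.09 (−0.54 to 0.35) for TFEB at 97 and 80 counts.

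The other genes of the pathway were followed in lists drawn up by function. In the parental pair they are read against the 14.2% of all genes that were higher and the 16.8% that were lower. The counts of higher genes in the lysosomal membrane, other receptor and nutrient control lists were near that background. Lysosomal hydrolases had the highest share of higher genes in the parental pair: of 36 compared, 21 were at least 1.5-fold higher and 2 lower in U87MG si-LINC00461, with a median log2 ratio of 0.68 against −0.002 for all genes. The leading genes were the cysteine protease CTSS (745 counts in U87MG si-NC and 2202 in U87MG si-LINC00461, 1.75), the glycogen-degrading GAA (896 and 1936, 1.30), the depalmitoylating PPT1 (2430 and 5038, 1.24) and CTSZ, which had only 17 and 35 counts (1.21, 0.35 to 2.16) and was under 1 CPM in the control. The 2 lower genes, named after their values were seen, were the lipase LIPA (1717 and 890, −0.76) and GUSB, the beta-glucuronidase (1029 and 561, −0.69). A RefSeq window was given for 25 of the 40 hydrolases listed. Of these 25, 8 held the E-box core (32%, against 8.77% of all genes) and 4 its longer form (16%, against 1.18%). The set of all genes was not matched to the hydrolases either. Whether the hydrolases with the motif were the higher ones was not tested.

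Genes of the V-ATPase, the proton pump that keeps lysosomes acid for their proteases, showed the same direction. Of 17 V-ATPase genes compared, 7 were higher and 0 lower, with a median of 0.55, and the leading ones were ATP6V1G1 (1329 and 2259 counts, 0.95), ATP6V1B2 (1067 and 1717, 0.87), ATP6V0B (696 and 1101, 0.85) and ATP6V0E1 (1547 and 2180, 0.68). Of 24 lysosomal membrane and sorting genes 5 were higher and 1 lower, with a median of 0.35. The ganglioside activator GM2A (0.78), the amino acid sensor SLC38A9 (0.76) and GNPTG, which helps tag hydrolases for the lysosome (0.73), were among the higher ones, and the sorting receptor SORT1 was lower (1627 and 836 counts, −0.77).

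Lists outside the lysosome were more mixed in the parental pair. Of 24 other core autophagy genes, 2 were higher and 2 lower, with a median of 0.28. The tethering factor PLEKHM1 had only 6 counts in U87MG si-NC and 34 in U87MG si-LINC00461 (2.60, 1.42 to 4.23), and it passed the filter only through the library in which it is high. ZFYVE1 was higher (0.63), and ATG16L2 (240 and 133 counts, −0.66) and SH3GLB1, a BECN1 partner (2539 and 1417, −0.65), were lower. Of 14 other receptors, 2 were higher and 2 lower, with a median of 0.23. They were the mitophagy receptor FUNDC1 (180 and 360, 1.19), the adaptor TOLLIP (0.62), the mitophagy receptor BNIP3 (19880 and 9690, −0.85) and the ER-phagy receptor RETREG1 (341 and 173, −0.79).

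Among 28 genes of nutrient control 5 were higher and 3 lower, or 4 and 4 with library totals or DESeq2 size factors, with a median of 0.02. MITF, the relative of TFEB and TFE3, was lower (366 and 141 counts, −1.19), as was the AMPK subunit PRKAA2 (1052 and 468, −0.98), whereas FNIP1 (1139 and 1950, 0.96) and its partner FLCN (642 and 1078, 0.93), which regulate these transcription factors, were higher. Of 18 genes of the HDAC6 aggresome route, only the chaperone HSPB8 passed 1.5-fold (762 and 170 counts, −1.97), and the median was 0.06. All 10 cell cycle genes followed as context, including TYMS (1122 and 94 counts, −3.38), were lower in U87MG si-LINC00461, with a median of −2.23. The vimentin gene VIM fell from 126719 to 56351 counts (−0.98), whereas NES (0.03) and CD44 (0.12), from the same list, did not fall. Of the neuronal markers SNAP25 had 1075 and 2057 counts, SYT1 had 146 and 195, and RBFOX3 had only 3 and 0. The 7 macrophage and microglia markers together made up 13.6 CPM in U87MG si-NC and 9.0 CPM in U87MG si-LINC00461. Nearly all of that was CSF1R, with 268 and 149 counts. The part of any of these in the lysosomal differences was not tested.

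Few genes of these lists passed 1.5-fold after HDAC6 knockdown. In the 8 lists together, 2 genes passed 1.5-fold, both lower. They were HDAC6 itself, the siRNA target, among 18 genes of the aggresome route, and FNIP2 among 28 of nutrient control. FNIP2, a relative of FNIP1, had 2171 counts in the control and 1090 after si-HDAC6 (−0.60). Of all 13120 genes compared, 2.52% were lower and 2.68% higher. The medians of the hydrolase, V-ATPase and lysosomal membrane lists were 0.06, 0.15 and 0.06 log2 units, where the middle 50% of all genes ran from −0.14 to 0.13. Of the 17 other genes compared in the HDAC6 aggresome route, 0 passed 1.5-fold, which is near the shares of all genes. The V-ATPase median thus lay just above that range. The 10 cell cycle genes lay between −0.42 and −0.02 with a median of −0.26, below it, and none passed 1.5-fold.

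Set side by side, the 2 knockdown comparisons share no library. LINC00461 itself was lower in both, at −0.55 after si-HDAC6 and −2.12 after si-LINC00461. Of 33 members with a ratio in both, 17 were above 0 in both, 0 were below 0 in both, 11 were above 0 after si-LINC00461 only and 5 after si-HDAC6 only. The ratio lay further from 0 after si-LINC00461 for 23 of them. These counts were not taken over all genes, so they are not read as a result about the members. They also depend on the scaling. After si-LINC00461, 5 members lay below 0 with TMM and 10 with DESeq2 size factors. The middle 50% of all genes was also wider after si-LINC00461 (−0.385 to 0.348) than after si-HDAC6 (−0.135 to 0.132). ATG2A was the one gene with a ratio above 0.36 in both pairs, at 0.37 after si-HDAC6 and 1.07 after si-LINC00461. CTSL (−0.14 and 2.40) and WIPI1 (−0.13 and 1.09) lay on opposite sides of 0. The difference between cell lines and that between knocked-down genes cannot be told apart here.

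The resistant and parental control libraries were compared next, to describe the state in which each knockdown began. The authors scaled the 2 pairs separately, and TMZ was kept on one of the lines, so resistance, drug and any batch cannot be told apart. This comparison also shares a library with each knockdown comparison. Of 34 members compared, 11 were at least 1.5-fold lower in R-U87MG si-NC (32.4%) and 3 higher (8.82%), against 25.3% and 22.9% of all 13352 genes. The 11 include ULK2, which passed the filter only through U87MG and is listed at 0 in R-U87MG. Without it 10 of 33 were lower. An interval wholly below 0 was found for 21 members and one above 0 for 8, against 39% and 39.2% of all genes. The median log2 ratio was −0.29, and that of all genes was 0.01. Scaling by library totals in place of TMM moved the median of all genes by 0.27, gave 8 members lower and 4 higher, and changed the lower share of all calls from 52.5% to 34.0%. The values below are relative to the TMM scaling.

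SQSTM1 was the highest member in R-U87MG. It lies on chromosome 5 from 179806398 to 179838078 on the plus strand and had 981 counts in U87MG si-NC and 4346 in R-U87MG si-NC, a log2 ratio of 2.15 (2.05 to 2.25). With 4265 counts in R-U87MG si-HDAC6 and 978 in U87MG si-LINC00461, both R-U87MG libraries lay above both U87MG libraries. ATG3 (771 and 1570 counts, 1.03, 0.90 to 1.16) and UVRAG (179 and 302, 0.76, 0.49 to 1.03) were the other higher members. Their counts in the knockdown libraries, 1099 and 715 for ATG3 and 227 and 198 for UVRAG in R-U87MG si-HDAC6 and U87MG si-LINC00461, kept the same order of the cell lines.

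The lower members in R-U87MG came from every role, although TFEB and ATG4B, the only lower ones of their roles, were within 1.5-fold with library totals. PIK3C3 had 1467 counts in U87MG si-NC and 339 in R-U87MG si-NC (−2.11, −2.29 to −1.94), and 284 in R-U87MG si-HDAC6. Of the initiation kinases, ULK1 had 3056 and 1130 counts (−1.43, −1.53 to −1.33) and ULK2 was listed at 0 in R-U87MG. ATG9A had 5090 and 1971 counts (−1.37, −1.44 to −1.29). Both genes of the GABARAP-like pair were lower, GABARAPL1 at 1358 and 421 counts (−1.69, −1.85 to −1.53) with 378 in R-U87MG si-HDAC6, and GABARAPL2 at 950 and 573 (−0.73, −0.88 to −0.58) with 490. ATG4B, which processes them, had 745 and 461 counts (−0.69, −0.86 to −0.52), with 410 in R-U87MG si-HDAC6 and 589 in U87MG si-LINC00461. The remaining ATG8 genes differed by less than 1.5-fold, GABARAP at −0.39 and MAP1LC3B at 0.47.

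Cathepsins B and D were lower in R-U87MG and cathepsin L was not. CTSB had 34695 counts in U87MG si-NC, 12414 in R-U87MG si-NC and 9628 in R-U87MG si-HDAC6 (−1.48, −1.51 to −1.45). CTSD had 26986, 13631 and 11455 counts in the same libraries (−0.98, −1.01 to −0.95), and CTSL had a ratio of 0.12 (0.07 to 0.17). OPTN had 3646 counts in U87MG si-NC, 3258 in U87MG si-LINC00461, 1804 in R-U87MG si-NC and 1511 in R-U87MG si-HDAC6 (−1.01, −1.09 to −0.93), the opposite direction to SQSTM1, which also binds ubiquitin. The receptors NBR1 and CALCOCO2 lay just under 1.5-fold at −0.58 each. TFEB had 57 counts in R-U87MG si-NC (−0.76, −1.26 to −0.28).

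**Figure D3:**
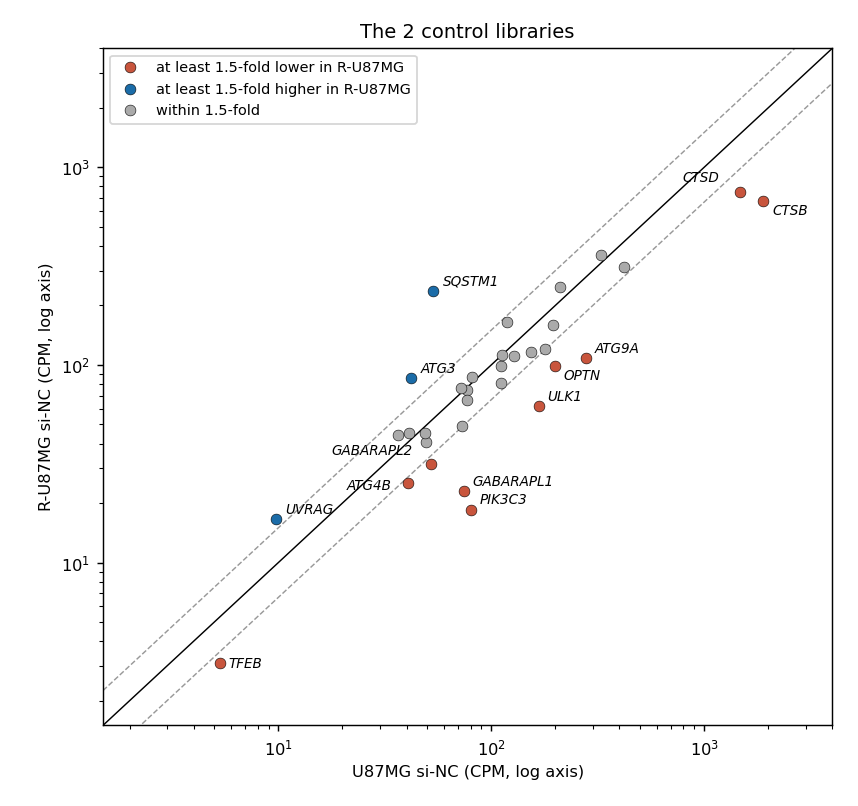
Level in CPM of the 33 genes above 0 in both control libraries, U87MG si-NC on the x axis and R-U87MG si-NC on the y axis, both on log axes. The solid line marks equal levels and the dashed lines 1.5-fold, with SQSTM1 furthest above and PIK3C3 furthest below.

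The other lists are read against the 25.3% of all genes that were lower in R-U87MG si-NC and the 22.9% that were higher. The counts of lower genes among the other receptors and the other core autophagy genes were near that background. The mitophagy receptors BNIP3 (19880 counts in U87MG si-NC and 1068 in R-U87MG si-NC, −4.21) and BNIP3L (15515 and 1917, −3.01) had the lowest ratios of the 14 other receptors, of which 4 were lower and 0 higher, or 3 and 1 with library totals. FKBP8 (−1.55) and STBD1 (−0.72) were the other two. Of 35 hydrolases 15 were lower and 2 higher, led by CTSS (745 and 160, −2.21) and GAA (896 and 256, −1.80), a split that became 7 lower and 6 higher with library totals. Of 23 other core autophagy genes 6 were lower, led by the LC3 gene MAP1LC3A (226 and 45, −2.31), and 1 was higher, or 5 and 3 with library totals. Of 17 V-ATPase genes 4 were higher, led by ATP6V1D (843 and 2075, 1.30), where 22.9% of all genes were higher, and 1 was lower, or 5 and 0 with library totals. In the HDAC6 aggresome route 4 of 18 genes were higher and 2 lower, or 5 and 1 with library totals. The chaperone HSP90AA1 was the highest (17051 and 67817, 3.99-fold), and HDAC6 itself was lower (649 and 296, −1.13).

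Membrane and nutrient control genes were split between the control libraries. Of 24 lysosomal membrane and sorting genes 7 were higher, among them TMEM192 (412 and 1116 counts, 1.44) and the cystine transporter CTNS (465 and 1035, 1.16), and 6 were lower, among them the calcium channel TPCN2 (432 and 203, −1.08). With library totals 10 were higher and 4 lower. Of 28 nutrient control genes 5 were higher and 7 lower, and the Rag GTPases, which tether mTORC1 to the lysosome, lay at both ends, with RRAGC at 1.28 and RRAGA at −1.697. With library totals the nutrient control split was 9 higher and 2 lower. Of the 10 cell cycle genes 8 were higher in R-U87MG si-NC, with a median of 0.89, and their part in these differences was not tested.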

How the data were processed

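RNA-seq was performed on 4 libraries, 1 per condition. According to the submitters' processing notes, bcl2fastq, Trimmomatic 0.36 and HISAT2 were used with GRCh38.p13, and the counting program and annotation are not given in the sources used here. Deposited by the authors is, for every Ensembl gene, an estimated count that carries a library-wide factor bringing both libraries of a pair to a like total. Each value was divided by that factor, which gave numbers within 0.02 of a whole number for 93.4% to 94.1% of values above 0, and rounded. Depth ran from 12596072 to 20027865. Symbols and positions came from GENCODE 29.

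Counts were normalized with TMM (edgeR 4.0.16, R 4.3.3), and log2 ratios used a pseudocount of 0.5, which understates the change of low genes. Genes with a mean of at least 1 CPM were compared. Levels across all 4 libraries used TMM sizes of the 4 together and were divided by the union of exons. Intervals are 95% exact binomial. With 1 library per group no test was possible. The ratio was tested on simulated data with 200 changed genes per pair, run in Python 3.11.15 with numpy 2.4.6, pandas 2.3.3 and scipy 1.17.1. Figures used matplotlib 3.10.9.

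The members, lists and rules were chosen with earlier results of these data known. Every member at least 1.5-fold apart in a comparison and the highest of each role is given with its counts, and each other list with at most 4 genes of the largest ratios and at least 10 counts. Alternatives were library totals, DESeq2 1.42.0 size factors, upper-quartile scaling, pseudocounts of 0.1 and 5, thinning, other filters, the deposited scaling, the interval beyond 1.5-fold, the mean and the longest transcript. ATG8 protein sequences were not analysed here.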

Additional observations from a re-analysis of the deposited data

How the results depend on the processing

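No paired analysis was possible because each group has 1 library, and for the same reason no library could be left out. Over all settings run, the members at least 1.5-fold apart numbered 0 in each direction after si-HDAC6, 3 to 5 higher and 0 lower after si-LINC00461, and 8 to 13 lower and 2 to 4 higher between the control libraries. The count of 3 came from keeping only genes with whole fragment numbers, which leaves out CTSL, and this restriction and the one to genes above 0 in both libraries were chosen after seeing the data. Upper-quartile scaling brought ATG2B past 1.5-fold. With the mean in place of the median, the members lay at 0.29 after si-LINC00461 (median 0.16) and at −0.52 between the controls (median −0.29). Library totals moved the median between the controls to −0.023. TFEB (−0.49), GABARAPL2 (−0.46) and ATG4B (−0.42) were then within 1.5-fold, and MAP1LC3B (0.74) was beyond it. Of 1051 values recomputed, 37 moved by more than their counting error and 0 of them reversed. Per-kilobase levels depend on the length used, but the highest gene of each role in U87MG si-NC was the same with the longest transcript. Depth limits the genes with few counts, such as TFEB, ULK2, CTSZ and PLEKHM1.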
